A study of Mus musculus with 4 samples.

Results

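The nuclear genes for subunits of the 5 complexes of oxidative phosphorylation were followed in cells that lack c-Jun, a subunit of the transcription factor AP-1, and in wild-type cells. The cells were induced epiblast stem cells (iEpiSCs) of the mouse. Members were taken by gene name, as every listed gene called Ndufa, b, c, s or v with a number, Sdha to Sdhd, Uqcr, Cox4 to Cox8 or Atp5, leaving out names that end in -ps. Of 29267 genes listed per library, 84 met this rule: 35 of complex I, 4 of complex II, 8 of complex III, 20 of complex IV and 17 of complex V. Ndufa4, named after complex I, and its paralogue Ndufa4l2 were placed with complex IV, in which the NDUFA4 protein resides. A few matched names are not structural subunits of an enzyme, such as Cox7a2l, which encodes a supercomplex factor, and Atp5s, which encodes coupling factor B.

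The cells of genotype c-Jun-/- gave 2 libraries (replicates 2 and 3) and wild-type cells gave 2 (replicates 2 and 3). All were iEpiSCs derived from embryonic stem cells grown in 2i and LIF. They were replated, and after 8 hours received medium with 20 ng/ml Activin A, 20 ng/ml bFGF, 2 µM XAV939 and 2.5 µM IWR-1, the last 2 being inhibitors of Wnt signalling, and were then kept as epiblast stem cells. The labels give neither an age, the number of clones nor whether replicates were separate cultures, so the spread behind each p-value may be technical, and genotype and cell line cannot be told apart.

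Oxidative phosphorylation passes electrons from NADH through complex I (NADH dehydrogenase) or from succinate through complex II (succinate dehydrogenase) to ubiquinone. Complex III (the cytochrome bc1 complex) hands them to cytochrome c, and complex IV (cytochrome c oxidase) to oxygen. Complexes I, III and IV pump protons, and complex V (ATP synthase) uses the gradient to make ATP. Complex II is built from nuclear genes alone, while the others combine nuclear subunits with subunits encoded in mitochondrial DNA. Primed pluripotent cells such as epiblast stem cells are known for reliance on glycolysis and for low mitochondrial respiration compared with naive cells.

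Total expected counts were 4666559 to 6341342 per library. Gene levels are given as CPM (counts per 1e+06 counts, scaled by TMM) or as TPM (transcripts per 1e+06, a level per length), and 3 counts, taken as the detection floor for counting error only, stood for 0.473 to 0.643 CPM. Jun itself stood at 17.3 and 17.2 TPM in the c-Jun-/- libraries, against 65.3 and 73.3 TPM in the wild-type libraries. All 8 markers of primed epiblast cells were detected in every library. They summed to 2629 and 2657 TPM in c-Jun-/-, against 2941 and 2928 TPM in wild type, with 1 called higher and 5 lower. T, not called, and Pou5f1, called higher, were the largest terms, at 1211 to 1261 and 636 to 726 TPM. Those called lower were Cer1 (log2 fold change -2.54), Otx2 (-1.18), Sox2 (-1.14), Fgf5 (-0.33) and Dnmt3b (-0.19). The naive markers Zfp42, Klf4 and Esrrb summed to 5.04 to 6.37 TPM over the 4 libraries, with Zfp42 at 1 count in c-Jun-/- replicate 2 and 0 in the others. The 3 fibroblast markers summed to 18.6 and 26.9 TPM in c-Jun-/-, against 18.6 and 14.1 TPM in wild type, and none was called. The 3 neural markers, of which Sox1 and Tubb3 lie on chromosome 8, were all called higher. Pax6, on chromosome 2, rested on 13 and 19 counts in c-Jun-/-, against 5 and 2 in wild type (edgeR adjusted p = 0.049). The 3 neural markers summed to 19.8 and 21.2 TPM in c-Jun-/-, against 4.43 and 7.18 TPM in wild type. The 3 endoderm markers summed to 220 and 209.6 TPM in c-Jun-/-, against 252 and 263.5 TPM in wild type. Sox17 (log2 fold change -1.24) and Gata6 (-1.15) were called lower. Foxa2, the largest term at 189 to 225 TPM, was not called. The part of these marker differences in the values below was not tested. Tested genes on chromosome 8 had a median log2 fold change of 0.51 in c-Jun-/- over wild type, against -0.01 for genes elsewhere, and members on that chromosome are therefore given apart.

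Promoter sequences are shown for the pair of chromosome 8 members with an entry in the RefSeq promoter table (GRCm38.p6), of which Ndufb7 passed the threshold and Ndufa13 did not (the difference between them was not tested), and for Cox7c, the call off chromosome 8 that held in most alternatives. Each runs 5′ to 3′ on the gene's strand from 250 bases before the RefSeq gene start to 50 after it. They lie at chr8:83566508-83566807 on the plus strand for Ndufb7, chr8:69901971-69902270 on the minus strand for Ndufa13 and chr13:86046746-86047045 on the minus strand for Cox7c. The Ndufa13 window lies wholly inside the span of the gene in the GENCODE annotation used for positions (69894180 to 69902558). Its RefSeq start thus lies downstream of the GENCODE start, and the window does not reach that start. The windows of Ndufb7 and Cox7c contain the GENCODE start of their gene. Capitals mark matches to the 5 short motifs described further on.
Ndufb7: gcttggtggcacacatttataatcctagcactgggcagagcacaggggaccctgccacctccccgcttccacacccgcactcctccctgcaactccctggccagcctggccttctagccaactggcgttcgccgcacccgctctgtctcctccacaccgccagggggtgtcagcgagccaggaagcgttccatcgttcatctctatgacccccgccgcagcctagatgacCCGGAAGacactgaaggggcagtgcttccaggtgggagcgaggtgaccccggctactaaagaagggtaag
Ndufa13: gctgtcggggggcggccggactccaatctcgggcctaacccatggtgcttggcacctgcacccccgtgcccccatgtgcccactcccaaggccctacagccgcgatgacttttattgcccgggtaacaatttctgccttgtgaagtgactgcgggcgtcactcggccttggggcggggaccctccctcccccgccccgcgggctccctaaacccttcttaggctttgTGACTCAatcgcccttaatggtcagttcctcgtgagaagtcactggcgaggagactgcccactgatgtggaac
Cox7c: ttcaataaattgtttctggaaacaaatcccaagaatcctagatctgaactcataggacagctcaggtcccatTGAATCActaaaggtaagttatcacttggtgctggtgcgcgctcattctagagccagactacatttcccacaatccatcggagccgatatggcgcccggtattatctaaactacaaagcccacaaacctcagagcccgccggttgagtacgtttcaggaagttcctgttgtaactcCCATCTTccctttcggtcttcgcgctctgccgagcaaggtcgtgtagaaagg
The capitals in the Ndufb7 promoter are an ETS motif. AP-1 was sought as TGANTCA, where N is any base. The Ndufa13 promoter matched it as TGACTCA and the Cox7c promoter as TGAATCA, with A at the open base. In Cox7c a YY1 motif on the opposite strand follows.

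Subunit transcripts were abundant in both genotypes and took a similar share of the signal over the listed genes. None of the 13 subunits encoded in mitochondrial DNA is among the listed genes, so they could not be analysed and the totals leave them out. Members summed to 1.99% and 1.95% of listed TPM in the c-Jun-/- libraries, against 2.08% and 2.09% in the wild-type libraries. As a share of counts they took 0.724% and 0.720% in c-Jun-/-, against 0.736% and 0.754% in wild type. On both scales the c-Jun-/- libraries lay below the wild-type libraries, and with 2 libraries against 2 an exact two-sided permutation test cannot go below 0.333. The totals behind these shares include chromosome 8. All genes tested off chromosome 8 summed in c-Jun-/- to 0.981 of wild type in TPM and 0.996 in CPM. Members off chromosome 8 summed to 0.933 in TPM and 0.9725 in CPM. Of the 84 members, 79 passed the filter on low counts, and the other 5 were all tissue-specific isoforms of complex IV.

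**Figure D1:**
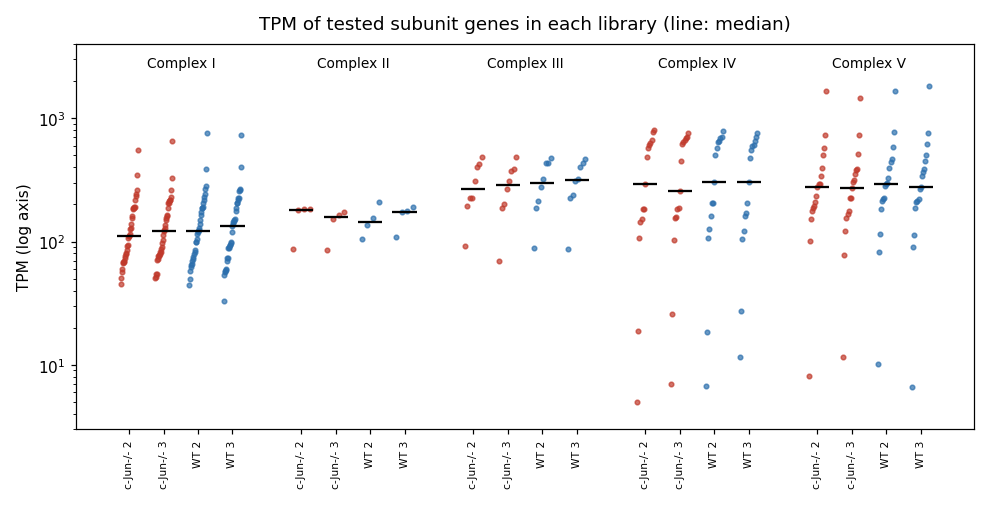
TPM (log axis) of the 79 tested members in each of the 4 libraries, by complex, with c-Jun-/- libraries in red and wild-type libraries in blue; each point is a gene and each line the median of the complex. Complex I has the lowest medians, at 112 to 135 TPM, and Atp5b of complex V is the highest point in every library.

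In the genotype comparison 4 of the 79 tested members rose and 1 fell in c-Jun-/- cells, and 74 did not pass a threshold of 0.05 on edgeR's quasi-likelihood p, adjusted by Benjamini-Hochberg over 12598 genes. The share called among all genes tested was 15.5%, with 8.21% higher and 7.32% lower. Among tested genes averaging 10 CPM or more, the range of 75 of the 79 tested members, it was 17.2%. Those that rose were Cox4i1 and Ndufb7, both on chromosome 8, Cox7c and Cox6b2. Ndufa12 fell. Off chromosome 8, 2 members rose and 1 fell of 76 tested, against 13.1% called among all genes tested there (5.4% higher and 7.68% lower).

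Fold changes of members were small. Their log2 fold changes off chromosome 8 had a median of -0.05 with quartiles of -0.14 and 0.06, while all genes tested off chromosome 8 had a median of -0.01 with quartiles of -0.22 and 0.15. Of the 76 members off chromosome 8, 59 (77.6%) lay within 0.2 of 0, against 53.1% of all genes tested there. Members are expressed more highly than most tested genes, and low counts scatter more. With a mean of at least 10 CPM, on any chromosome, 77.3% of members and 58.6% of all genes tested lay within 0.2. Standard errors of the 79 members ran from 0.05 to 0.63 with a median of 0.12, so a change of 0.2 was not detectable for many of them. In 12 members both c-Jun-/- libraries lay above both wild-type libraries and in 25 both lay below, while 42 overlapped. Among all genes tested 53.9% did not overlap, with 27.0% above and 26.9% below.

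**Figure D2:**
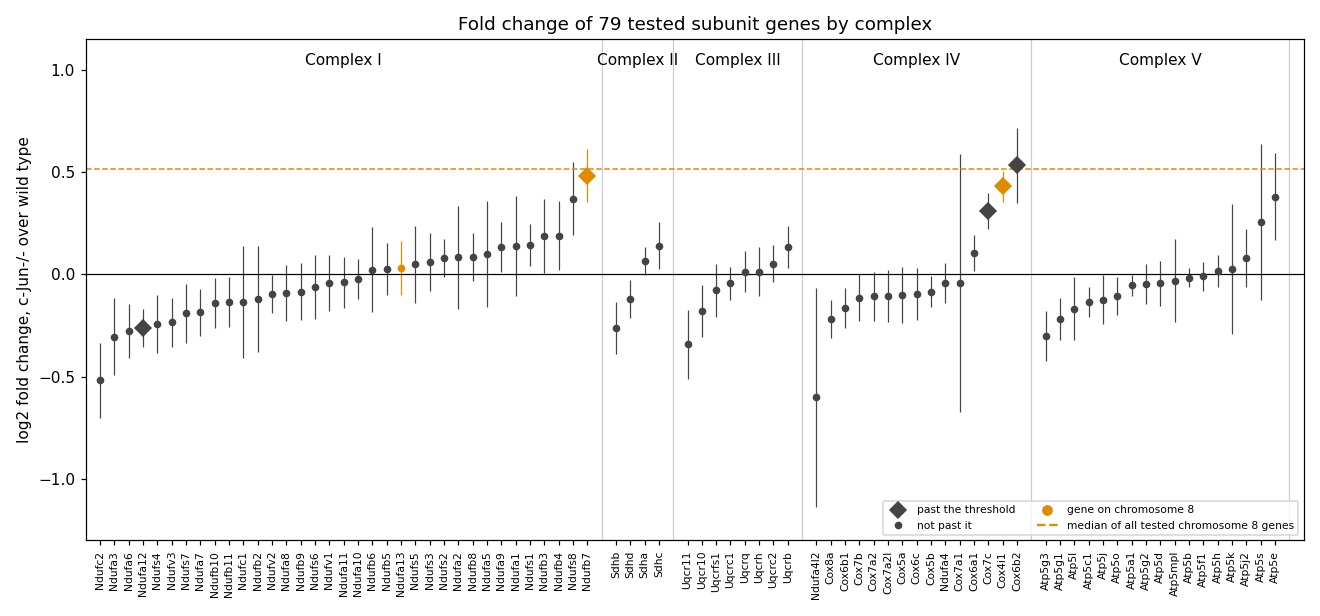
Log2 fold change of c-Jun-/- over wild type for each of the 79 tested members, ordered within its complex; bars are the standard error, diamonds passed the threshold, and orange marks genes on chromosome 8 with the median of all tested genes of that chromosome as a dashed line. Cox4i1 and Ndufb7 lie near that line at 0.43 and 0.48, and Ndufa13 lies near 0.

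Members on chromosome 8 were Cox4i1, Ndufb7 and Ndufa13, and 2 of these 3 rose, against 58.2% of all tested chromosome 8 genes called in either direction and 57.2% called higher. Cox4i1 (ENSMUSG00000031818, chromosome 8, 120668222 to 120674207, plus strand, GRCm38) encodes the widely expressed form of subunit 4, which takes part in the regulation of cytochrome c oxidase by ATP. It had 237 and 208 CPM in the c-Jun-/- libraries, against 168 and 163 CPM in the wild-type libraries. The genotypes did not overlap, and the log2 fold change was 0.43 ± 0.08 (SE, n = 2 per genotype; edgeR adjusted p = 1.34e-04), a level 1.35-fold higher in c-Jun-/-. This call was kept without any single library, at adjusted p between 2.68e-06 and 0.0137. It was kept in 11 of 14 alternatives, and lost with limma on log2(TPM + 1) (0.102) and log2(TPM + 0.1) (0.106) and in the fit that centred chromosome 8 genes (0.566). Cox4i1 made up 14.3% and 11.96% of the summed TPM of complex IV members in c-Jun-/-, against 10.1% and 10.2% in wild type. Its exons share 154 bases with those of Emc8 on the opposite strand, which was itself higher in c-Jun-/- (0.36 ± 0.11). The labels do not state that the libraries kept strand, so reads in such shared bases cannot be told apart.

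Ndufb7 (ENSMUSG00000033938, chromosome 8, 83566671 to 83571626, plus strand) encodes an accessory subunit of the membrane arm of complex I. It had 63.8 and 55.5 CPM in the c-Jun-/- libraries, against 40.1 and 45.5 CPM in the wild-type libraries. Both c-Jun-/- libraries lay above both wild-type libraries, with a log2 fold change of 0.48 ± 0.13 (edgeR adjusted p = 0.00933). The call was kept in 9 of 14 alternatives, with adjusted p from 0.00166 to 0.925 over all. It was lost with limma on log2(TPM + 1) (0.116) and log2(TPM + 0.1) (0.121) and in the fit that centred chromosome 8 genes. It was also lost without c-Jun-/- replicate 2 or wild-type replicate 2. Without single libraries the log2 fold change ran from 0.37 to 0.58.

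Ndufa13 (ENSMUSG00000036199, chromosome 8, 69894180 to 69902558, minus strand), which encodes GRIM-19, an accessory subunit needed for assembly of the membrane arm, did not pass the threshold. It had 54.1 and 46.5 CPM in the c-Jun-/- libraries, against 47.9 and 51.1 CPM in the wild-type libraries, and the genotypes overlapped. Its log2 fold change was 0.03 ± 0.13 (edgeR adjusted p = 0.92), and 62 of the 684 tested chromosome 8 genes (9.06%) had a lower one. In a fit that moved the median of chromosome 8 genes to 0, Ndufa13 stood at -0.48 ± 0.13 against that median (edgeR adjusted p = 0.0116), whereas Cox4i1 and Ndufb7 stood at -0.08 ± 0.08 and -0.03 ± 0.13 and did not pass. In that fit 12.4% of all genes were called, and 7.75% of the chromosome 8 genes were called below their median and 7.02% above it. The call of Ndufa13 against the median was lost without c-Jun-/- replicate 3 (-0.39, edgeR adjusted p = 0.126) or wild-type replicate 3 (-0.44, edgeR adjusted p = 0.0838), in fits added after the data were seen. The 5 tested genes on each side of Ndufa13 had a median log2 fold change of 0.42, with 0.12 as the lowest, and 4 of these 10 were called higher. The 10 neighbours of Ndufb7 had a median of 0.54, with 0.11 as the lowest and 5 called higher. Those of Cox4i1 had a median of 0.25, with -0.77 as the lowest and 4 called higher. Of all tested chromosome 8 genes 57.2% were called higher. The exons of Ndufa13 share 375 bases with those of Tssk6 on the opposite strand, which had 18.3 and 11 expected counts in c-Jun-/-, against 2 and 4 in wild type.

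**Figure D3:**
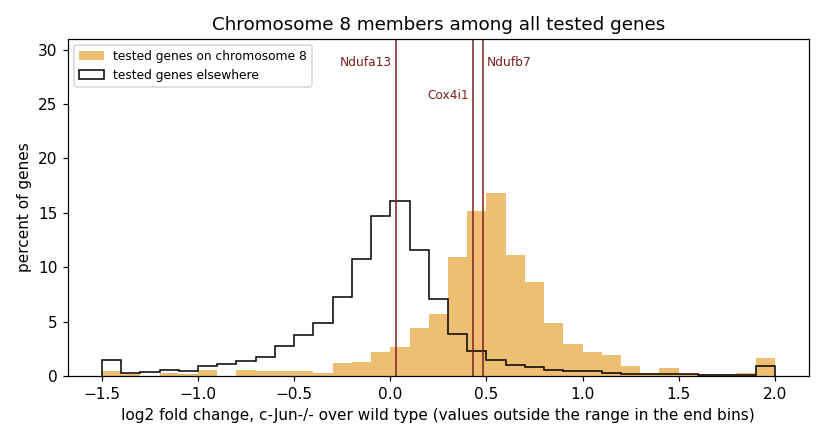
Distribution of log2 fold changes (c-Jun-/- over wild type, in bins of 0.1) as a percent of tested genes on chromosome 8 (orange) and elsewhere (black outline), with vertical lines at the 3 members on chromosome 8. Cox4i1 at 0.43 and Ndufb7 at 0.48 fall in the main body of chromosome 8 genes, and Ndufa13 at 0.03 falls in the main body of the other genes.

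Complex I showed little change outside these genes. Of its 35 tested members 1 rose (Ndufb7), 1 fell (Ndufa12) and 33 did not pass, against 15.5% called among all genes tested. The median log2 fold change of complex I members was -0.04. Ndufa12 (ENSMUSG00000020022, chromosome 10, 94198720 to 94221443, plus strand), an accessory subunit of the matrix arm, was the most abundant complex I transcript at 557 and 650 TPM in c-Jun-/- and 763 and 729 TPM in wild type. In CPM it had 115 and 141 in c-Jun-/-, against 155 and 150 in wild type, with no overlap. Its log2 fold change was -0.26 ± 0.09 (edgeR adjusted p = 0.0496), and the call was lost without c-Jun-/- replicate 2 (log2 fold change -0.11, edgeR adjusted p = 0.636), wild-type replicate 2 (0.134) or wild-type replicate 3 (0.101). It was kept in 6 of 15 alternatives, with adjusted p from 0.00331 to 0.636 over all of them.

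The 7 core subunits of complex I carry the flavin and the iron-sulfur clusters that pass electrons from NADH to ubiquinone. They included no call by edgeR, DESeq2 or limma, and their median log2 fold change was 0.06. All lie off chromosome 8, where edgeR called 13.1% of all genes tested. Of the 7, Ndufs8, the 1 core subunit with an unadjusted edgeR p under 0.05, stood at 0.37 ± 0.18 (edgeR adjusted p = 0.17). The 28 accessory subunits had a median of -0.05. By position, the 16 members of the matrix arm had a median of -0.05 and the 19 of the membrane arm a median of -0.02. Ndufc2, an accessory subunit of the membrane arm, was the nearest miss: it had 19.2 and 21.1 CPM in c-Jun-/-, against 25.9 and 31.5 CPM in wild type, without overlap (log2 fold change -0.52 ± 0.18, edgeR adjusted p = 0.0514). It passed in 3 of 15 alternatives, among them the fit without wild-type replicate 2 (edgeR adjusted p = 0.0246; 0.0246 to 0.356 over all), and was singled out after its values were seen.

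Levels of complex I transcripts spanned a wide range. The mean TPM of Ndufa12 was 13.6 times that of Ndufb2, the lowest member at 56.8 and 50.6 TPM in c-Jun-/- and 57.8 and 32.9 TPM in wild type. Summed over the complex, TPM came to 5097 ± 113 in c-Jun-/- and 5514 ± 18.4 in wild type (mean ± SD, n = 2 each), with both c-Jun-/- libraries below both wild-type ones. Summed CPM came to 1697 ± 41.5 in c-Jun-/- and 1744 ± 42.7 in wild type, and on that scale the libraries overlapped.

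In complex II none of 4 members passed the threshold by edgeR, DESeq2 or limma, and 1, Sdhb, had an unadjusted edgeR p under 0.05. The share called by edgeR among all genes tested off chromosome 8 was 13.1%. Sdha, the flavoprotein that oxidises succinate, had 180 and 165 TPM in c-Jun-/-, against 154 and 175 TPM in wild type (log2 fold change 0.07 ± 0.07). Sdhb, the iron-sulfur protein, had 86.9 and 85.8 TPM in c-Jun-/-, against 105 and 108 TPM in wild type (-0.26 ± 0.13, edgeR adjusted p = 0.183). The membrane anchors Sdhc and Sdhd stood at 0.14 ± 0.12 and -0.12 ± 0.09. Sdhb was the lowest of the 4. In Sdhb and Sdhd both c-Jun-/- libraries lay below both wild-type libraries in CPM, as in 26.9% of all genes tested. Those of Sdha and Sdhc overlapped. Levels within complex II were the most even of the 5 complexes, with mean TPM differing by 1.96 times between Sdhd at the top and Sdhb.

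In complex III none of 8 members passed by edgeR, DESeq2 or limma, and 0 had an unadjusted edgeR p under 0.05. By edgeR 13.1% of all genes tested off chromosome 8 were called. Uqcrfs1, the Rieske iron-sulfur protein, had the lowest level, with 91.4 and 68.9 TPM in c-Jun-/-, against 88.0 and 87.3 TPM in wild type (log2 fold change -0.08 ± 0.13). Uqcrb, a small subunit at the ubiquinone site, had the highest, with 484 and 488 TPM in c-Jun-/-, against 472 and 434 TPM in wild type (0.13 ± 0.10). The core proteins Uqcrc1 and Uqcrc2 stood at -0.04 ± 0.08 and 0.05 ± 0.09. Uqcr11, the smallest subunit, had 25.4 and 37.4 CPM in c-Jun-/-, against 36.0 and 42.3 CPM in wild type, and the genotypes overlapped (-0.34 ± 0.17, edgeR adjusted p = 0.189). Without c-Jun-/- replicate 3 it stood at -0.63 and passed (edgeR adjusted p = 0.0151; up to 0.896 over all alternatives), and without c-Jun-/- replicate 2 at -0.07.

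Of the 20 members of complex IV 15 were tested, 3 rose, none fell and 12 did not pass. Off chromosome 8 these were 2 of 14, against 13.1% of all genes tested there in either direction and 5.4% higher. Besides Cox4i1, Cox7c (ENSMUSG00000017778, chromosome 13, 86044816 to 86046904, minus strand), a small subunit with a single gene, had 139 and 145 CPM in c-Jun-/-, against 120 and 109 CPM in wild type. The genotypes did not overlap, and the log2 fold change was 0.31 ± 0.09 (edgeR adjusted p = 0.0127), 1.24-fold higher in c-Jun-/-. The call was lost without c-Jun-/- replicate 3 (edgeR adjusted p = 0.0933) or wild-type replicate 3 (0.144) and was kept in 11 of 15 alternatives (0.00237 to 0.144 over all). Cox5a, Cox5b and Cox6c, other subunits with a single form, stood between -0.10 and -0.08 and did not pass.

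Cox6b2 (ENSMUSG00000051811, chromosome 7, 4751792 to 4753094, minus strand) encodes the testis form of subunit 6b, known in germ cells and some tumours. It had 26.3 and 34.1 CPM in c-Jun-/-, against 19.6 and 21.8 CPM in wild type, with no overlap. The log2 fold change was 0.53 ± 0.18 (edgeR adjusted p = 0.0452), and the call was kept in 6 of 15 alternatives (0.0116 to 0.379). It was lost without c-Jun-/- replicate 3 (0.379), wild-type replicate 2 (0.18) or wild-type replicate 3 (0.0723). Cox6b1, the common form, had 93.4 and 112 CPM in c-Jun-/-, against 112 and 117 CPM in wild type (-0.17 ± 0.10, edgeR adjusted p = 0.291). Of the TPM of both forms, Cox6b2 took 21.1% and 22.1% in c-Jun-/-, against 13.5% and 14.7% in wild type. The shares did not overlap between genotypes, and with 2 libraries each the smallest exact permutation p is 0.333.

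**Figure D4:**
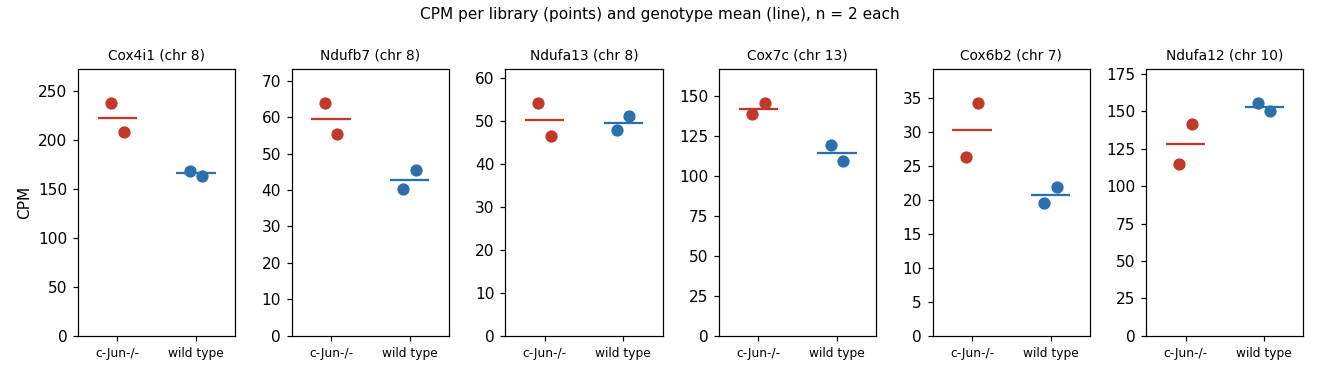
CPM of the 5 called members and of Ndufa13 in each library (points; c-Jun-/- left in red, wild type right in blue) with the genotype mean as a line, n = 2 each, axes from 0. The genotypes do not overlap in the 5 called members and overlap in Ndufa13.

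Other isoform genes of complex IV showed the common form in use. Cox6a2 and Cox8b, the heart and muscle forms, Cox7b2 and Cox8c, the last known from testis, had 0 counts in every library. Cox4i2, a form induced by hypoxia in lung, had 2 counts in wild-type replicate 2 and 0 elsewhere, below the floor of 3 counts. The partner forms were abundant: Cox6a1 had 661 and 703 TPM in c-Jun-/-, against 639 and 656 TPM in wild type, and Cox7b had 143 and 155 TPM in c-Jun-/-, against 160 and 161 TPM in wild type. Cox8a was the most abundant member of complex IV by mean, with 605 and 689 TPM in c-Jun-/-, against 786 and 754 TPM in wild type. Its genotypes did not overlap (log2 fold change -0.22 ± 0.09, edgeR adjusted p = 0.11), and it passed without c-Jun-/- replicate 3 (edgeR adjusted p = 0.0191; 0.0191 to 0.756 over all alternatives).

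Of the paralogues of subunit 7a, Cox7a2 led with 182 and 188 TPM in c-Jun-/-, against 207 and 203 TPM in wild type (-0.11 ± 0.12). Cox7a1, the heart and muscle form, was detected at 18.7 and 25.8 TPM in c-Jun-/-, against 18.4 and 27.5 TPM in wild type, resting on 8 to 13 counts per library (-0.04 ± 0.63). Cox7a2l had 106 and 103 TPM in c-Jun-/-, against 127 and 105 TPM in wild type (-0.11 ± 0.13). Ndufa4 had 626 and 615 TPM in c-Jun-/-, against 704 and 605 TPM in wild type (-0.04 ± 0.10). Its paralogue Ndufa4l2, a target of the hypoxia factor HIF-1, was the lowest tested member of complex IV, with 4.95 and 7.01 TPM in c-Jun-/-, against 6.73 and 11.7 TPM in wild type (-0.60 ± 0.53, edgeR adjusted p = 0.522). None of these 5 passed, and the counts of Cox7a1 and Ndufa4l2 leave wide errors.

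**Figure D5:**
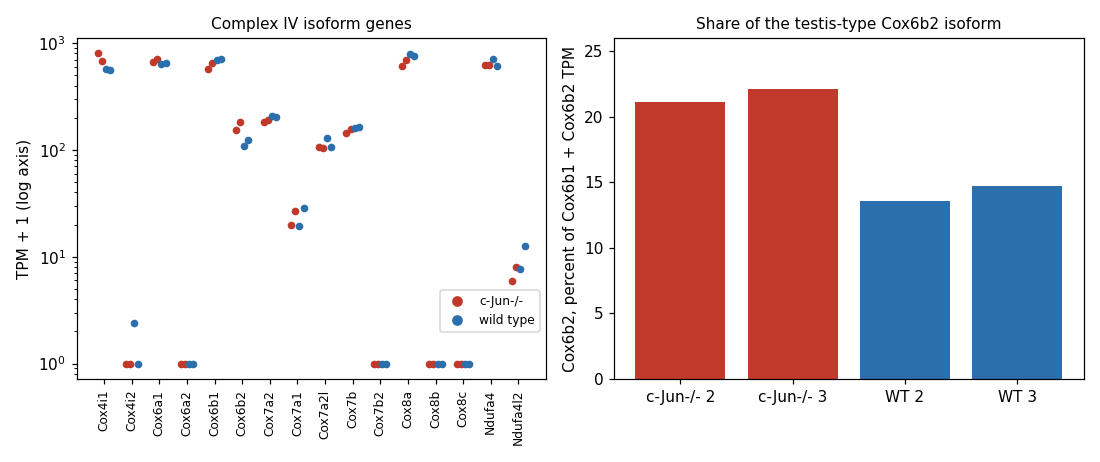
Left, TPM + 1 (log axis) of complex IV isoform genes in the 4 libraries, c-Jun-/- in red and wild type in blue, where genes at 0 sit at 1; right, Cox6b2 as a percent of the TPM of Cox6b1 and Cox6b2 in each library. Cox6a2, Cox7b2, Cox8b and Cox8c are at 0 in every library, and the share of Cox6b2 is 21.1% and 22.1% in c-Jun-/- and 13.5% and 14.7% in wild type.

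Complex V contributed no call among 17 members by edgeR, DESeq2 or limma, and 2, Atp5g1 and Atp5g3, had an unadjusted edgeR p under 0.05. For comparison, edgeR called 13.1% of all genes tested off chromosome 8. The median log2 fold change of complex V members was -0.04. Atp5b, the catalytic beta subunit of F1, was the most abundant member of all, with 1652 and 1456 TPM in c-Jun-/-, against 1650 and 1809 TPM in wild type. It ranked 55 and 65 among all genes by TPM in c-Jun-/-, against 53 and 51 in wild type. Its log2 fold change was -0.02 ± 0.05, the smallest standard error of any member. Atp5s, coupling factor B, was the lowest member at 8.04 and 11.5 TPM in c-Jun-/- and 10.2 and 6.60 TPM in wild type (0.25 ± 0.38). The 5 subunits of F1 had a median log2 fold change of -0.04 and the 4 of the peripheral stalk, which holds F1 still against the membrane part, a median of -0.06.

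The c ring, the rotor that protons turn, is encoded by 3 genes whose mature proteins are identical. None passed, and all 3 stood below 0 in the fit to all libraries. Atp5g2 led with 504 and 381 TPM in c-Jun-/-, against 441 and 500 TPM in wild type, and Atp5g1 had 292 and 305 TPM in c-Jun-/-, against 329 and 369 TPM in wild type. Atp5g3 had 188 and 155 TPM in c-Jun-/-, against 220 and 215 TPM in wild type. The log2 fold changes were -0.05 ± 0.10 for Atp5g2 (0.10 without c-Jun-/- replicate 3 and 0.06 without wild-type replicate 3), -0.22 ± 0.10 for Atp5g1 and -0.30 ± 0.12 for Atp5g3 (edgeR adjusted p = 0.825, 0.167 and 0.103). The genotypes overlapped in Atp5g2 and not in the other two. Atp5g2 supplied 51.2% and 45.3% of c ring TPM in c-Jun-/-, against 44.6% and 46.1% in wild type.

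Summed by complex, TPM in c-Jun-/- relative to wild type came to 0.924 for complex I, 0.967 for complex II, 0.946 for complex III, 1.01 for complex IV and 0.914 for complex V. The same ratios of summed CPM were 0.973, 1.00, 0.985, 1.03 and 0.968. Without the chromosome 8 members, the ratios were 0.909 in TPM and 0.961 in CPM for complex I, and 0.974 in TPM and 0.983 in CPM for complex IV. The ratio of complex IV thus lay above 1 with Cox4i1 and below 1 without it, but the genotypes overlapped both times. Summed TPM of complex IV was 5607 and 5611 in c-Jun-/-, against 5682 and 5457 in wild type. Without Cox4i1 it was 4806 and 4940 in c-Jun-/-, against 5110 and 4901 in wild type. Without Ndufa10, whose estimated length varied most between libraries, the TPM ratio of complex I was 0.927. Over the 3 chromosome 8 members the ratio was 1.28 in TPM and 1.29 in CPM. These ratios are to be read against those of all genes tested. Off chromosome 8 these were 0.981 in TPM and 0.996 in CPM, and on it 1.446 and 1.431.

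Genes that serve the chain were examined as lists, to be read against 15.5% called among all genes tested (8.21% higher and 7.32% lower). Of 44 tested assembly factors 1 rose, none fell and 43 did not pass, with a median log2 fold change of 0.02. The gene that rose was Coa5, a complex IV assembly factor, at 0.27 ± 0.09 (edgeR adjusted p = 0.0344). Its call was kept in 8 of 15 alternatives and without 1 of the 4 libraries, and was lost with DESeq2 (0.0966) and limma on TPM (0.011 to 0.361 over all). It was lost without c-Jun-/- replicate 2 (0.17), c-Jun-/- replicate 3 (0.0674) or wild-type replicate 3 (0.315). Next by p, neither passing, were Cox17, a copper chaperone of complex IV, at -0.35 ± 0.16 and Bcs1l, which inserts the Rieske protein, at 0.39 ± 0.18. Of 11 tested genes of coenzyme Q synthesis 2 fell and none rose, with a median of -0.16. Coq8b, an atypical kinase of the pathway, had 14.4 and 17.8 CPM in c-Jun-/-, against 34.2 and 33.2 CPM in wild type (-1.08 ± 0.18, edgeR adjusted p = 5.58e-05). Coq4, a scaffold of the synthesis complex, had 14.8 and 15.4 CPM in c-Jun-/-, against 25.3 and 24.3 CPM in wild type (-0.72 ± 0.20, edgeR adjusted p = 0.00978). Both lie off chromosome 8 and neither overlapped between genotypes. The call of Coq8b was kept in 13 of 15 alternatives, all but limma on TPM (up to 0.0678), and that of Coq4 in 11 of 15. Coq4 was lost with DESeq2 (0.0509), limma on TPM (up to 0.0787) and without c-Jun-/- replicate 2 (0.0581).

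Of 14 tested genes of the tricarboxylic acid cycle 1 fell, Suclg2, a subunit of succinyl-CoA ligase, at -0.33 ± 0.11 (edgeR adjusted p = 0.0324), and none rose. The call of Suclg2 was kept in 8 of 15 alternatives (0.00835 to 0.361) and lost with DESeq2 (0.107) and limma on TPM. It was lost without c-Jun-/- replicate 3 (0.361), wild-type replicate 2 (0.0555) or wild-type replicate 3 (0.134). Of 14 tested genes of mitochondrial biogenesis and transcription 1 rose, Nrf1, a transcription factor for many subunit genes, at 0.37 ± 0.12 (edgeR adjusted p = 0.0384), and none fell. The call of Nrf1 was kept in 7 of 15 alternatives (0.0181 to 0.324), and was lost with DESeq2 (0.123), with limma on TPM and without any single library: at 0.131 without c-Jun-/- replicate 2, 0.136 without c-Jun-/- replicate 3, 0.18 without wild-type replicate 2 and 0.0699 without wild-type replicate 3. Of 6 tested carriers of adenine nucleotides, phosphate and outer membrane solutes 3 rose and none fell. Of those that rose 2 lie on chromosome 8, where 57.2% of all tested genes were called higher. Slc25a4 and Vdac3, an ADP/ATP carrier and an outer membrane channel, lie on chromosome 8 and rose by 0.58 ± 0.07 and 0.53 ± 0.10. Slc25a5, another ADP/ATP carrier, lies on the X chromosome and rose by 0.36 ± 0.07 (edgeR adjusted p = 1.91e-04), with 305 and 311 CPM in c-Jun-/-, against 247 and 235 CPM in wild type. Its call was kept in 13 of 15 alternatives, all but limma on TPM (up to 0.073). With chromosome 8 genes centred Slc25a4 and Vdac3 did not pass (edgeR adjusted p = 0.652 and 0.928). None of 5 tested respiratory chain genes whose names fall outside the rule passed by edgeR, and 0 had an unadjusted p under 0.05 by edgeR, DESeq2 or limma on all libraries. Without wild-type replicate 3, 2 of them, Cycs (cytochrome c) and Usmg5, had one and neither passed. Cycs stood at -0.17 ± 0.10 in the fit to all libraries.

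Short motifs were counted in the promoters of members and of all genes. The RefSeq table held 71 promoters of 66 members among 32851 in all. The motifs, sought on both strands, were GCGCATG for NRF1, CCGGAAG for ETS factors, AAGATGG for YY1, TGACGTC for the cyclic AMP response element and TGANTCA for AP-1, which reads the same on both strands. The NRF1 motif was in 18.3% of member promoters and 3.91% of all promoters, the ETS motif in 22.5% and 8.86%, and the YY1 motif in 14.1% and 6.34%. The response element was in 9.86% of member promoters and 3.21% of all, and the AP-1 motif in 9.86% and 7.81%. NRF1, ETS factors and YY1 are known regulators of respiratory chain genes. The 32851 promoters were not limited to expressed genes. Whether other genes expressed at like levels carry these motifs as often as members was not tested. The 7 members with a match to TGANTCA in this window were Atp5c1, Atp5g1, Cox7c, Ndufa13, Ndufa5, Ndufa9 and Uqcrh. Of these Cox7c rose and the others did not pass, against 15.5% called among all genes tested. A match describes letters in this window and is not a measured binding site.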

How the data were processed

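RNA from 4 mouse iEpiSC libraries was sequenced on a NextSeq 500 from TruSeq RNA libraries, per the labels' protocols. RSEM, Bowtie2, bcl2fastq and build mm10 are named in the submitters' processing notes, without versions. For each gene the authors deposited, per the file headers, an expected count (an estimated count), TPM, FPKM and an effective length, with reads shared between genes split; FPKM was not used. Symbols and positions came from GENCODE M21 (GRCm38), matching 28756 of 29267 identifiers. Expected counts were rounded, filtered with filterByExpr (minimum count 10, total 15; 12598 genes), scaled by TMM (factors 0.988 to 1.008) and tested with edgeR 4.0.16 (glmQLFit, glmQLFTest; R 4.3.3) without covariates, on all 4 libraries, with Benjamini-Hochberg adjustment over all genes tested and a threshold of 0.05. A standard error is the size of the log2 fold change over the root of its F statistic. Replicates varied by 6.5% beyond counting error (biological coefficient of variation). The script was tested on simulated data. Members, lists and the rule for named genes (called members, chromosome 8 members, the extremes of each complex, isoform sets, SDH genes and up to 3 genes per list by p) were chosen with earlier results of these data known; Ndufc2, Ndufs8, Uqcr11, Uqcrc1, Uqcrc2, Cox5a, Cox5b, Cox6c, Emc8 and Tssk6 were added after their values were seen. Alternatives used limma 3.58.1 and DESeq2 1.42.0. Of the members, 29 share annotated exon bases with another gene.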

Additional observations from a re-analysis of the deposited data

How the results depend on the processing

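Without a single library, the number of called members ran from 2 to 5, those off chromosome 8 from 0 to 3 and those on it from 1 to 2. There were 3 called without c-Jun-/- replicate 2 (Cox4i1, Cox6b2, Cox7c), 3 without wild-type replicate 2 (Cox4i1, Cox7c, Ndufc2) and 2 without wild-type replicate 3 (Cox4i1, Ndufb7). In that last fit edgeR called 0 members off chromosome 8, with 9 at an unadjusted p under 0.05. Without c-Jun-/- replicate 3 there were 5, but with Cox8a and Uqcr11 in place of Cox7c and Cox6b2. The medians ran from -0.081 to -0.0435 off chromosome 8 and from 0.33 to 0.52 on it. A lone library of a genotype is assumed to vary like the other genotype's. DESeq2 called 3 members, 1 of them off chromosome 8 (1341 genes in all, against 1956 by edgeR). Limma on log2(TPM + 1) or log2(TPM + 0.1) called 0 members, 0 off and 0 on chromosome 8, with 19 at an unadjusted p under 0.05 on each scale; it called 420 and 374 genes in all, and the median off chromosome 8 was -0.0906 and -0.0909. The fit without chromosome 8 genes called 2 members, Cox6b2 and Cox7c. With chromosome 8 genes centred 2 were called, 1 off (Cox7c) and 1 on chromosome 8 (Ndufa13, -0.482), the median of members on it was -0.084, and Cox4i1 and Ndufb7 stood at -0.084 and -0.031. Centring removes the chromosome 8 shift by construction, and for the others the cause was not tested. With the replicate block 7 members were called, 5 of them off chromosome 8 (Ndufc2 and Cox8a added), and 2377 genes in all, against 1956. Same-numbered libraries deviated together with r = 0.022 over genes, and the labels tie no number to a shared culture, so the numbers were not taken as pairs.

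Signs also turned for some members that were not called: Ndufa13 (-0.0213 and -0.0216) and Ndufb2 (0.29 and 0.30) with limma on the TPM scales. Without single libraries the values ran from -0.087 to 0.13 for Ndufa13, -0.39 to 0.21 for Ndufb2, -0.34 to 0.31 for Cox7a1, -0.016 to 0.30 for Sdhc, -0.063 to 0.027 for Atp5b, -0.23 to 0.10 for Atp5g2, -0.042 to 0.58 for Atp5s, -0.28 to 0.075 for Uqcrfs1, -0.23 to 0.022 for Cox7a2l and -0.13 to 0.052 for Ndufa4. Against the chromosome 8 median, in alternatives added after the data were seen, they ran from -0.19 to 0.0022 for Cox4i1, -0.15 to 0.058 for Ndufb7 and -0.61 to -0.39 for Ndufa13. With RLE scaling and with no filter the same 5 members were called. Total counts exchanged Cox6b2 (0.0621) for Ndufc2 (0.0457), voom lost Cox6b2 (0.0628) and the filter of 1 CPM lost Ndufa12 (0.0509). Members summed with copies named -ps were not run.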

Other observations

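The estimated effective length of a gene, by which RSEM turns counts into TPM, differed between libraries for some members. For 5 of the 79 tested members the highest length was more than 1.2 times the lowest. Ndufa10, an accessory subunit of complex I, had 684 and 446 counts in c-Jun-/-, against 511 and 581 in wild type, and a log2 fold change of -0.02. Its effective length was 1735 and 649 bases in c-Jun-/-, against 907 and 866 bases in wild type. In TPM it stood at 112 and 260 in c-Jun-/-, against 204 and 227 in wild type, so that c-Jun-/- replicate 2 was the lowest library in TPM and the highest in counts. Ndufv1, the flavin-binding core subunit, had 67.6 and 103 TPM in c-Jun-/-, against 121 and 73.6 TPM in wild type, with counts of 308 and 302 in c-Jun-/- and 322 and 285 in wild type.

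Some members differed more between replicate numbers than between genotypes. Atp5d, the delta subunit of F1, had 119 and 153 CPM in c-Jun-/- replicates 2 and 3, against 120 and 159 CPM in wild-type replicates 2 and 3. Ndufs6, a zinc-binding accessory subunit of complex I, had 37.6 and 48.5 CPM in c-Jun-/- replicates 2 and 3, against 37.2 and 51.7 CPM in wild-type replicates 2 and 3. Atp5d and Ndufs6 were picked after their values were seen, and they do not stand for the members as a whole. Over the 79 tested members, 26 were higher in replicate 3 in both genotypes, 11 were higher in replicate 2 in both, and 42 went opposite ways. Over all genes tested, same-numbered libraries deviated together with r = 0.022.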
